A study of Mus musculus with 75 samples.

Results

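The TNF and TNF receptor family was followed through 10 genes of enteric glial cells, the glia of the gut wall: the ligands Tnf, Tnfsf9 and Tnfsf10, the receptors Tnfrsf1a, Tnfrsf1b, Tnfrsf9, Fas and Cd40, and the TNF-induced genes Tnfaip2 and Tnfaip6. The genes were chosen by symbol, and they and the gene lists below were chosen with earlier results of these data known. Shares of them called, set beside the share of all genes, are therefore descriptions only. All 10 genes were found in both deposited count tables, which hold 21051 and 21076 symbols. The series covers 75 RNA-seq libraries of cells labelled EGC in 3 experiments. Adult untreated eGFP reporter mice gave 6 small-intestinal and 5 colonic libraries from each of the myenteric plexus (the nerve layer between the muscle coats) and the submucosal plexus. In the 2 h experiment, eGFP reporter mice received 1 intraperitoneal injection of LPS (lipopolysaccharide, a bacterial endotoxin, from E. coli O111:B4) at 2 mg/kg or of PBS (phosphate-buffered saline), and the myenteric plexus of each region gave 4 libraries per treatment. In the 24 h experiment the same injections were given to wild-type mice (Gpr37WT) and to knockout mice (Gpr37-/-), and again the myenteric plexus was taken. The small intestine gave 6 PBS and 4 LPS libraries of wild-type mice and 4 PBS and 5 LPS libraries of knockout mice. The colon gave 4 PBS and 5 LPS libraries of wild-type mice and 5 PBS and 4 LPS libraries of knockout mice. All mice, controls included, carry a transgenic reporter for enhanced green fluorescent protein (eGFP). How the labelled cells were separated from the tissue is not given in the sources used here.

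Tumour necrosis factor (TNF) is the founding ligand of a family of trimeric cytokines that bind receptors with cysteine-rich extracellular repeats. Binding of TNF to TNFR1 (Tnfrsf1a) or TNFR2 (Tnfrsf1b) assembles adaptor complexes that switch on NF-kappaB and MAP kinase signalling, and receptors with a death domain, such as TNFR1 and Fas, can also trigger cell death. Gut macrophages and glia both sense LPS through Toll-like receptor signalling, and TNF is among the classical early products of that response.

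For all 10 genes a position was found in RefSeq (GRCm38.p6, a patch release of GRCm38, which the submitters' processing notes name). Tnf lies at chr17:35199367-35202007 on the minus strand and Tnfsf9 at chr17:57105287-57107758 on the plus strand. Tnfaip2 lies at chr12:111442450-111455018, Tnfaip6 at chr2:52038113-52056681 and Fas at chr19:34290647-34327775, all on the plus strand. Tnfrsf1a lies at chr6:125349723-125362483 and Tnfrsf9 at chr4:150920155-150946104 on the plus strand, and Tnfrsf1b at chr4:145212368-145246870 on the minus strand. Tnfsf10 lies at chr3:27317077-27339665 and Cd40 at chr2:165055614-165071654, both on the plus strand.

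RefSeq promoters were at hand for 8 of the 10 genes, with 9 start sites since Tnfrsf9 has an alternative start. Cd40 and Tnfsf9 had no entry. The 250 bases before each start were searched on both strands for an NF-kappaB decamer (GGGNNTTNCC), an interferon-stimulated response element core (ISRE, GAAANNGAAA) and a gamma-activated site (GAS, TTCNNNGAA). Of all 32851 promoters in the table, 4.11% held the NF-kappaB decamer, 2.98% the ISRE core and 7.02% the GAS in the same window. The sequences below are those of the members that held at least 1 of the 3 motifs, shown because Fas, Tnfaip6, Tnfrsf1a and Tnfrsf9 are among the genes that rose after LPS. Tnfrsf1b, which was not called in any comparison below by the edgeR test, is set beside them. Capitals mark the matches, and each sequence runs 5′ to 3′ on the gene's strand (RefSeq, GRCm38.p6). Annotated exons are left out of the longer stretches, and the matches of Tnfrsf1a and Tnfrsf9 are given within 30 bases.
Fas chr19:34290409-34290646, plus strand: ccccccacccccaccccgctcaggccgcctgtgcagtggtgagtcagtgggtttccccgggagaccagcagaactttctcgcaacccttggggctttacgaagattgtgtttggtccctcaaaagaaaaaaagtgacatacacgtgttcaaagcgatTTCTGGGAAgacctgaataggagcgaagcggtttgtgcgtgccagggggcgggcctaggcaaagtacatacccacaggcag
Tnfaip6 chr2:52037863-52038008, plus strand: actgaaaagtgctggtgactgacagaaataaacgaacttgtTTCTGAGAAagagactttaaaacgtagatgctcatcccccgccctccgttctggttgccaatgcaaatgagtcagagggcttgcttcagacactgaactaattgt
Tnfrsf1a chr6:125349473-125349502, plus strand: gcttccTTCCGTGAAattgacaacaggctt
Tnfrsf9 (alternative start, GAS) chr4:150927852-150927881, plus strand: gcaacagctgaTTCCAAGAAacccttcaga
Tnfrsf9 (alternative start, NF-kappaB) chr4:150927946-150927975, plus strand: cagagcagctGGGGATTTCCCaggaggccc
Tnfrsf1b chr4:145246871-145247120, minus strand: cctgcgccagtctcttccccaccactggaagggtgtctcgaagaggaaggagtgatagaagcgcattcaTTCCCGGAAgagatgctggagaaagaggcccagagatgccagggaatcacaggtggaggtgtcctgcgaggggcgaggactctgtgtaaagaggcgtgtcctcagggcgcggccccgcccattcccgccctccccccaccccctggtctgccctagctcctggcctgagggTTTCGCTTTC
The NF-kappaB decamer was found before the alternative start of Tnfrsf9, as 2 matches that overlap by all but 1 base, 42 and 43 bases before that start and inside the annotated exon of the transcript Tnfrsf9-208. The GAS was found in Fas (93 bases before the start), Tnfaip6 (209), Tnfrsf1a (244, inside the exon of the transcript Tnfrsf1a-203), Tnfrsf9 (136) and Tnfrsf1b (181). The ISRE core was found in Tnfrsf1b, ending at the base before its start. In the windows of Tnf, Tnfaip2, Tnfsf10 and the first start of Tnfrsf9, none of the 3 spellings occurred.

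Total counts per library ran from 1990744 to 7883251 at 2 h, from 2882539 to 33283346 at 24 h and from 2547296 to 9002546 in untreated mice. Levels are given as CPM (a library's counts brought to a common total, with TMM scaling). A count of 3 corresponds to at most 1.46 CPM in a 2 h library and 1.09 CPM in a 24 h library. Smart-seq2 libraries carry no molecular identifiers, so such floors cover counting error only. No pair of replicate libraries was identical, and p-values measure the spread between these samples. In the knockout group 17 of 18 libraries held 3 or fewer counts of Gpr37, with a highest count of 9, against 4 of 19 libraries labelled wild type. The latter 4 were the colon libraries of LPS mice 3, 5 and 8 and the small-intestinal library of LPS mouse 3. Whether these 4 labels are right cannot be told from Gpr37, since at 2 h, where the labels name no Gpr37 allele, 5 of 8 colon and 1 of 8 small-intestinal libraries also held 3 or fewer counts. They are used as labelled, and without them the same 2 members were called in each wild-type region. All 6 glial markers used (Sox10, S100b, Erbb3, Foxd3, Entpd2 and Gfap) were detected in every group. Libraries at 24 h from mice numbered 10 and below (12 libraries) had a median mitochondrial share of 15.4%, against 4.57% in the 25 libraries from mice numbered 11 and above. Mice numbered 10 and below made up 3 of 5 libraries of the wild-type LPS colon and 0 of 4 of its PBS control, so values without them are given where a call changed.

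At 2 h after LPS, Tnfaip2, Tnfaip6 and Fas rose in both regions and Tnfsf9 rose in the small intestine. A gene was called when edgeR's quasi-likelihood test gave a Benjamini-Hochberg adjusted p under 0.05 over all genes. In the small intestine 4 of the 9 members tested were called, all higher with LPS, where 1.1% of the 13107 genes tested were called. In the colon 3 of 9 were called, all higher, where 0.778% of all genes were called. The median log2 fold change of the 9 members was 2.84 (small intestine) and 1.66 (colon), and that of all genes was -0.02 and -0.002. Tnfrsf9 did not pass the filter on low counts at 2 h, and a gene can pass that filter through its LPS libraries alone, so these medians are descriptions only.

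**Figure D1:**
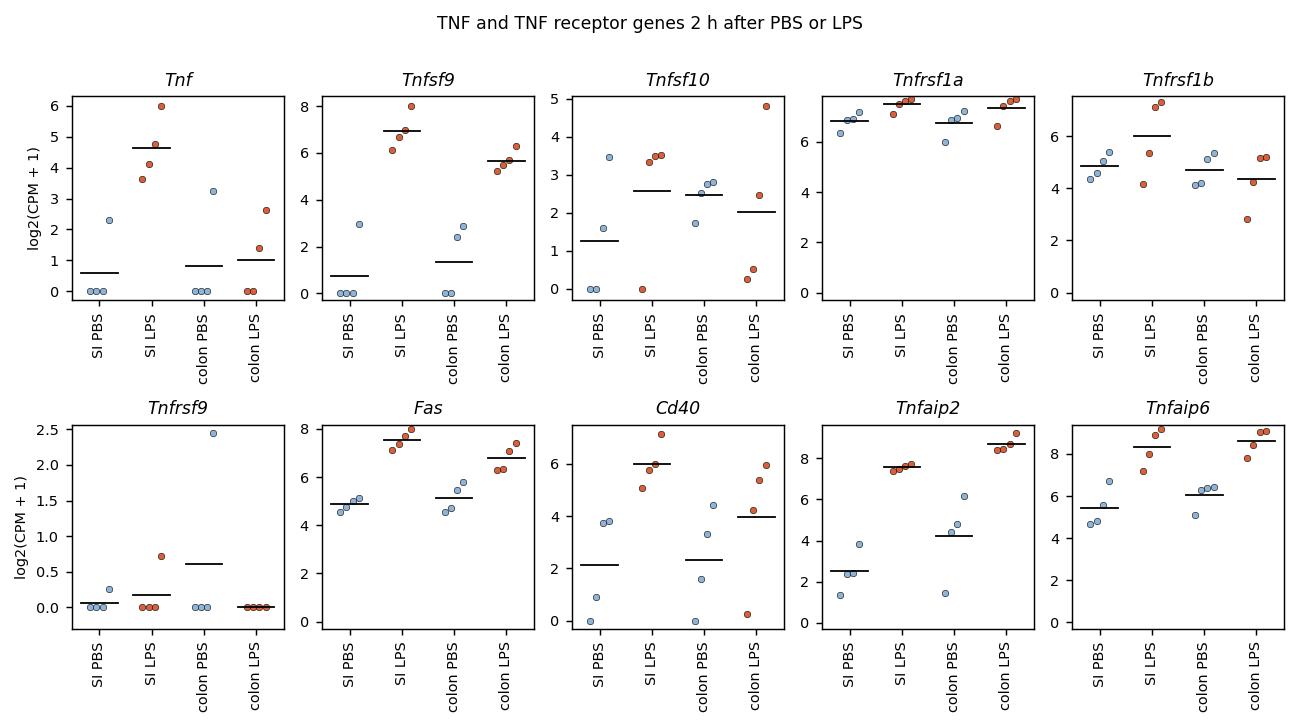
Level of each gene 2 h after PBS (blue) or LPS (red) in the small intestine (SI) and colon, as log2(CPM + 1) per library (4 libraries a group), with the group mean as a line. Tnfaip2, Tnfaip6, Fas and Tnfsf9 show LPS libraries above every PBS library in both regions, and Tnf and Cd40 do so in the small intestine. Of these differences, those of Tnf and Cd40 and that of Tnfsf9 in the colon were not called.

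Among the ligands, Tnfsf9 (4-1BB ligand, which costimulates T cells) showed the largest fold change in the small intestine. The PBS libraries held 0, 0, 6.83 and 0 CPM and the LPS libraries 101, 69.4, 258 and 127 CPM, for replicates 1 to 4. All LPS libraries exceeded all PBS libraries, and 3 of the 4 controls held no read of the gene. The log2 fold change was 6.26 ± 1.41 (SE, adjusted p = 0.0364, edgeR quasi-likelihood test). In leave-one-out fits the call held in 2 of 8. It was lost without PBS replicates 1, 2 or 4 (adjusted p = 0.121, 0.133 and 0.102) and without LPS replicates 1, 3 or 4 (adjusted p = 0.0604, 0.132 and 0.0734). Without PBS replicate 3 every control was at 0, and the mean with LPS was at least 167-fold higher, against a floor of 3 counts per library. In the colon Tnfsf9 held 0, 6.45, 4.34 and 0 CPM with PBS and 37.01, 43.5, 77.2 and 50.5 CPM with LPS. These groups did not overlap either, but the difference was not called (log2 fold change 4.33 ± 1.31, adjusted p = 0.26).

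Tnf, the founding cytokine, held 25.9, 16.3, 63.5 and 11.5 CPM in the small-intestinal LPS libraries and 0, 0, 0 and 3.95 CPM in the PBS libraries. The groups did not overlap, yet the spread was wide and the gene was not called (log2 fold change 4.75 ± 2.12, adjusted p = 0.859). Leaving out 1 library gave log2 fold changes from 4.07 to 10.08, without a call. In the colon Tnf held 0, 5.21, 1.64 and 0 CPM with LPS and 0, 8.49, 0 and 0 CPM with PBS, so most libraries there held no read and the groups overlapped. The difference between the regions was not called (interaction log2 -5.02 ± 2.75, adjusted p = 1), and without colon PBS replicate 2 its sign changed (1.37).

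Tnfsf10 (TRAIL, a ligand of death receptors) was low in both regions. With LPS the small-intestinal libraries held 9.01, 0, 10.3 and 10.5 CPM, against 0, 0, 10.0 and 2.04 CPM with PBS, and the groups overlapped (log2 fold change 1.28 ± 1.67, adjusted p = 1). In the colon the values were 0.446, 0.200, 4.52 and 27.2 CPM with LPS and 2.33, 4.76, 6.00 and 5.75 CPM with PBS, again overlapping (log2 fold change 0.78 ± 1.66, adjusted p = 1). Without LPS replicate 4, the highest library, that value was -1.48, so its sign rests on 1 library.

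Among the receptors, Fas (a death-domain receptor that binds FasL) rose in both regions. Its small-intestinal libraries held 34.0, 22.4, 31.5 and 26.1 CPM with PBS and 138.9, 254.9, 210 and 164.5 CPM with LPS. The lowest LPS library lay above the highest control, and the log2 fold change was 2.75 ± 0.36 (adjusted p = 0.000335, edgeR quasi-likelihood test), a call kept in 8 of 8 leave-one-out fits. In the colon Fas held 25.4, 54.4, 22.7 and 43.7 CPM with PBS and 76.9, 79.8, 171 and 134 CPM with LPS. The groups did not overlap, and the log2 fold change was 1.66 ± 0.35 (adjusted p = 0.0297). That call held in 3 of 8 leave-one-out fits. It was lost without PBS replicates 1, 3 or 4 (adjusted p = 0.126, 0.121 and 0.0581), without LPS replicates 3 or 4 (adjusted p = 0.0995 and 0.085), in a fit of the 2 colon groups alone (adjusted p = 0.204) and with a replicate block (adjusted p = 0.0599).

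Tnfrsf1a (TNFR1, the main receptor for soluble TNF) was detected in every library. With PBS it held 80.4, 116, 144 and 119 CPM in the small intestine, and with LPS 178, 209, 193 and 137 CPM. The ranges overlapped through LPS replicate 4, and the gene was not called (log2 fold change 0.64 ± 0.295, adjusted p = 0.907). In the colon PBS libraries held 62.5 to 150 CPM and LPS libraries 97.2 to 208 CPM, which also overlapped (log2 fold change 0.58 ± 0.295, adjusted p = 0.726). Tnfrsf1b (TNFR2, abundant on immune cells) held 19.4 to 40.8 CPM with PBS in the small intestine and 17.1, 157, 139 and 39.7 CPM with LPS. LPS replicates 2 and 3 stood above every control, while replicate 4 lay within and replicate 1 just below the control range (log2 fold change 1.61 ± 0.65, adjusted p = 0.679). In the colon Tnfrsf1b had a log2 fold change of -0.19 ± 0.64 (adjusted p = 1), whose sign changed without PBS or LPS replicate 4.

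Cd40, the receptor of CD40 ligand, held 0.884, 0, 12.5 and 13.2 CPM with PBS and 62.1, 32.6, 139 and 52.6 CPM with LPS in the small intestine. Every LPS library was above every control, but the difference was not called (log2 fold change 3.39 ± 1.38, adjusted p = 0.694). In the colon LPS replicate 2 was at 0.200 CPM while the other three held 17.7 to 60.0 CPM, against 0 to 20.5 CPM with PBS, and the groups overlapped (log2 fold change 1.90 ± 1.31, adjusted p = 0.928). Tnfrsf9 (4-1BB, the receptor of Tnfsf9) held reads in only 3 libraries at 2 h. These were replicate 3 of the small-intestinal PBS and LPS groups (0.2007 and 0.6501 CPM) and colon PBS replicate 1 (4.43 CPM), and all 4 colon LPS libraries were at 0.

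Of the TNF-induced genes, Tnfaip2 (named for its induction by TNF in endothelium) rose most clearly. In the small intestine it held 1.55, 13.2, 4.22 and 4.31 CPM with PBS and 168.7, 179.9, 214.5 and 196.8 CPM with LPS. The LPS libraries lay close together and far above the controls, with a log2 fold change of 5.13 ± 0.78 (34.9-fold, adjusted p = 0.00124, edgeR quasi-likelihood test). The call was kept in 8 of 8 leave-one-out fits, and without PBS replicate 2 the fold was 55.4. In the colon Tnfaip2 held 27.3, 1.70, 20.7 and 70.8 CPM with PBS and 412, 338, 607 and 349 CPM with LPS. Again no library of the groups overlapped, and the log2 fold change was 3.81 ± 0.72 (14.1-fold, adjusted p = 0.0129). The colon call was lost without PBS replicates 1 or 3 (adjusted p = 0.0655 and 0.0717) and in a fit of the colon groups alone (adjusted p = 0.0689), and without PBS replicate 4 the fold was 25.8.

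Tnfaip6 (TSG-6, a secreted hyaluronan-binding protein) rose in both regions at 2 h. In the small intestine it held 24.5, 47.3, 103 and 27.0 CPM with PBS and 143, 570.3, 479 and 255 CPM with LPS. The groups did not overlap, with a log2 fold change of 2.84 ± 0.525 (7.17-fold, adjusted p = 0.00733, edgeR quasi-likelihood test), kept in 8 of 8 leave-one-out fits. Without PBS replicate 3, the highest control, the fold was 11.1. In the colon it held 33.1, 77.5, 82.0 and 83.9 CPM with PBS and 344, 222, 549 and 520 CPM with LPS. Those groups were also apart, with a log2 fold change of 2.56 ± 0.52 (adjusted p = 0.0245), but the call held in 2 of 8 leave-one-out fits. It was lost without PBS replicates 1, 2, 3 or 4 (adjusted p = 0.0963, 0.0734, 0.0746 and 0.0646) and without LPS replicates 3 or 4 (adjusted p = 0.0652 and 0.0633).

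The response to LPS did not pass a test of difference between the regions for any member at 2 h. By edgeR's quasi-likelihood test the interaction called 0 members and 0% of all genes. At an unadjusted p under 0.05 the count was 1 member, Fas, and 452 genes, and DESeq2 called 0 members and 57 genes. The interaction of Fas was -1.09 ± 0.48 on the log2 scale (adjusted p = 1).

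In the wider pathway at 2 h, Tnfaip3, Birc3 and Zfp36 rose in both regions. The 6 lists of ligands, receptors, Tnfaip genes, signalling-complex genes, death-signalling genes and genes of TNF shedding and mRNA decay hold 94 genes, members included, of which 73 were tested. Of the 73, 9 rose in the small intestine, where 1.1% of all genes were called in either direction, and 7 rose in the colon, where 0.778% were called, while none fell. Tnfaip3, which encodes the deubiquitinase A20 that restrains NF-kappaB, rose from a mean of 5.53 to 444 CPM in the small intestine (log2 fold change 6.24 ± 0.99, adjusted p = 0.00183) and from 2.34 to 357 CPM in the colon (7.35 ± 1.07, adjusted p = 0.00178). Birc3, which encodes the ubiquitin ligase cIAP2 of the TNF receptor complex, rose from 12.6 to 327 CPM (4.68 ± 0.475, adjusted p = 3.43e-05) and from 9.97 to 275 CPM (4.78 ± 0.48, adjusted p = 4.86e-05). Zfp36, which encodes the tristetraprolin protein that destabilises Tnf mRNA, rose from 101 to 851 CPM (3.07 ± 0.50, adjusted p = 0.00244) and from 130 to 1146 CPM (3.14 ± 0.50, adjusted p = 0.00366). The related Zfp36l1 rose in the small intestine (1.98 ± 0.305, adjusted p = 0.00134), as did the receptor gene Tnfrsf12a (2.96 ± 0.36, adjusted p = 0.000165), and Birc2, which encodes cIAP1, rose in the colon (2.25 ± 0.37, adjusted p = 0.00431). Of the 10 death-signalling genes tested, 0 had an unadjusted p under 0.05 in either region, where 681 and 987 of all 13107 genes did, so 0 of 10 is near the share of all genes.

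Markers of immune cells were measured beside these values. At 2 h the summed level of 10 macrophage and monocyte markers ran from 515 to 2910 CPM with PBS and from 995 to 3483 CPM with LPS in the small intestine, and from 435 to 3114 CPM and 558 to 1306 CPM in the colon, with no marker at 0 in all libraries of a group. Of these 10 markers only Cd14, which encodes an LPS co-receptor, was called, and it rose from a mean of 35.2 to 879 CPM in the small intestine and from 23.6 to 195 CPM in the colon. Most of the list went the other way, with a positive log2 fold change for 3 of 10 markers in the small intestine (median -0.23) and 2 of 10 in the colon (median -0.93). The sum of 7 neutrophil markers had a median of 4.59 and a highest value of 158 CPM in the small-intestinal LPS group and was at most 7.67 CPM in the other 3 groups. Ngp was at 0 in all 4 groups. The sum of 4 B and plasma cell markers ran from 11.9 to 919 CPM with LPS and from 8.03 to 18.6 CPM with PBS in the small intestine, where Jchain was called (adjusted p = 0.0478). The 8 T and NK lymphocyte markers summed to at most 14.5 CPM, and Cd8a and Ncr1 were at 0 in all 4 groups. In bulk samples such as these, a change in the share of cells of a type and a change in RNA per cell cannot be told apart, and the part of immune cells in the results was not tested.

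At 24 h after LPS Tnfaip2 rose in both regions of wild-type mice, Tnfrsf1a in their small intestine, and Tnfrsf9 in the colon of both genotypes. In the wild-type small intestine 2 of 10 members were called, both higher, where 7.17% of the 14903 genes tested were called. In the wild-type colon 2 of 10 were called, both higher, where 7.96% of genes were called. In the knockout small intestine 0 of 10 were called by the edgeR test, where 0.718% of genes were called. There 2 members, Tnfrsf9 and Tnfaip2, had an unadjusted p under 0.05, as did 1709 of 14903 genes, and DESeq2 called both of them and 535 genes in all. In the knockout colon 1 of 10 was called, higher, again where 0.718% of genes were called. The median log2 fold change of the 10 members was 1.39, 0.54, 1.40 and 1.23 in the wild-type small intestine, knockout small intestine, wild-type colon and knockout colon, and that of all genes was -0.13, -0.05, -0.03 and -0.07. As at 2 h, a gene can pass the filter through its LPS libraries alone, so these medians are descriptions only.

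**Figure D2:**
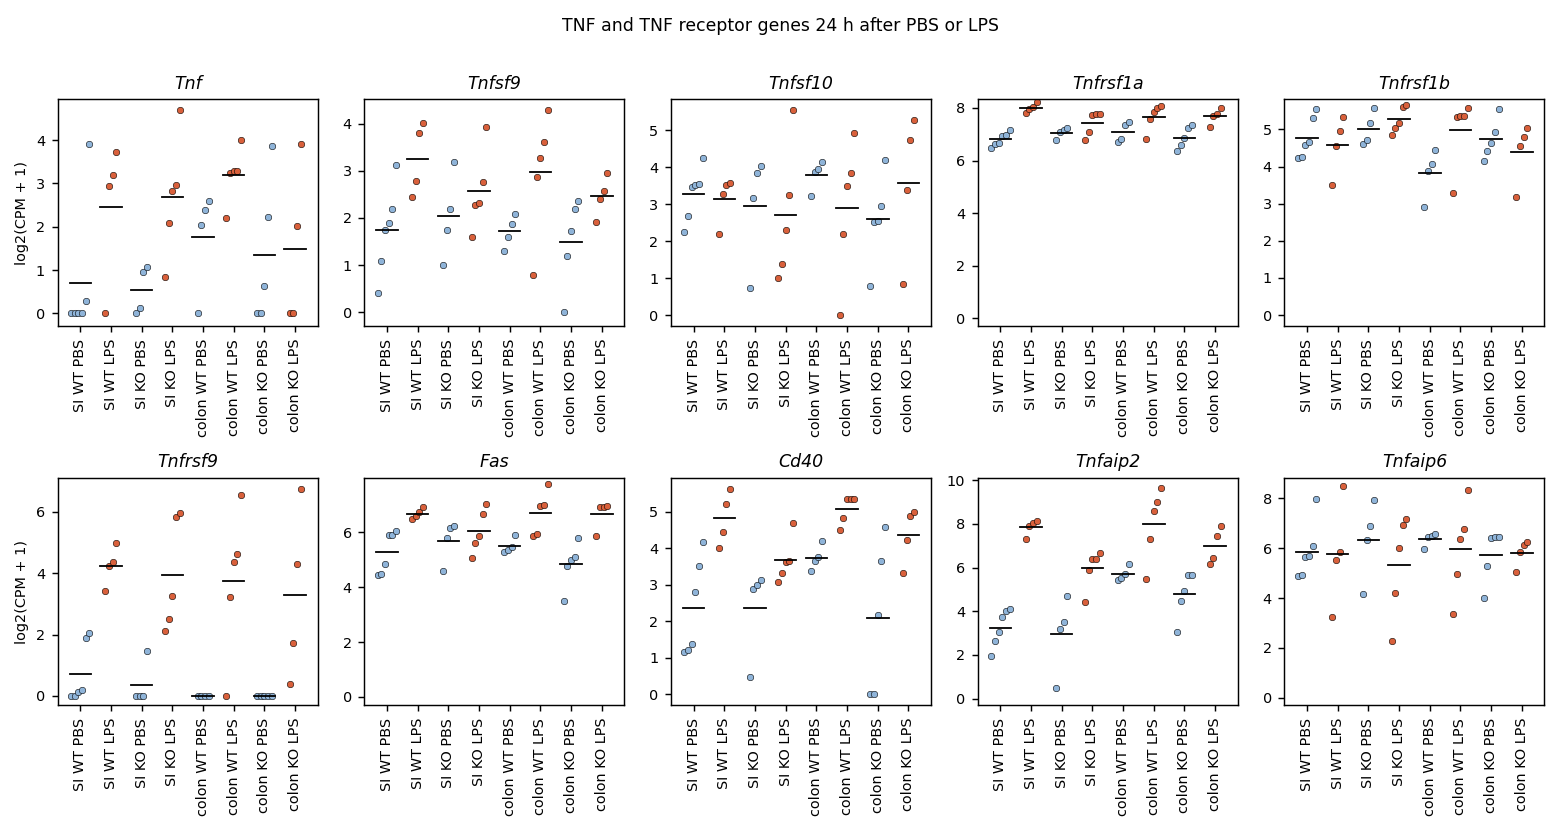
Level of each gene 24 h after PBS (blue) or LPS (red) in wild-type (WT) and Gpr37 knockout (KO) mice, as log2(CPM + 1) per library with the group mean as a line (4 to 6 libraries a group). Tnfaip2 and Tnfrsf1a of the wild-type small intestine show LPS libraries apart from PBS, and Tnfrsf9 is at 0 in all PBS libraries of the colon.

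Tnfaip2 was the member with the clearest difference at 24 h. In the wild-type small intestine the 6 PBS libraries held 2.80 to 16.3 CPM, with a median of 9.88, and the LPS libraries 236 (mouse 13), 157 (mouse 16), 261 (mouse 3) and 281 CPM (mouse 8). No library overlapped, and the log2 fold change was 4.57 ± 0.69 (23.7-fold, adjusted p = 4.58e-05, edgeR quasi-likelihood test), kept in 10 of 10 leave-one-out fits. In the knockout small intestine Tnfaip2 held 10.2, 25.0, 8.18 and 0.397 CPM with PBS (mice 12, 15, 20 and 7) and 82.7, 20.7, 102, 83.2 and 57.8 CPM with LPS (mice 10, 11, 17, 21 and 6). LPS mouse 11 lay within the control range and the other four above it, and the gene was not called (log2 fold change 2.65 ± 0.73, adjusted p = 0.0815). It was called without LPS mouse 11 (adjusted p = 0.0282) or without PBS mouse 15 (adjusted p = 0.0484), and by DESeq2 (adjusted p = 0.00345).

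In the wild-type colon Tnfaip2 held 45.4, 51.2, 71.0 and 41.5 CPM with PBS (mice 14, 19, 22 and 24) and 380.4, 508, 158, 791 and 43.1 CPM with LPS (mice 13, 16, 3, 5 and 8). LPS mouse 8 lay within the control range and the other four far above it. The log2 fold change was 2.85 ± 0.74 (7.19-fold, adjusted p = 0.015, edgeR quasi-likelihood test). The call was lost without PBS mouse 19 or 24 (adjusted p = 0.0524 and 0.051) and in a fit of the compared groups alone (adjusted p = 0.0514), and was kept among mice numbered 11 and above (adjusted p = 0.000866). In the knockout colon it held 7.40 to 50.1 CPM with PBS and 69.9, 171, 238 and 85.4 CPM with LPS (mice 11, 17, 2 and 21). There the groups did not overlap, but the gene was not called (log2 fold change 2.15 ± 0.68, adjusted p = 0.155) except by DESeq2 (adjusted p = 0.0374).

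The levels of Tnfaip2 under LPS were compared between genotypes directly. In the small intestine the 5 knockout LPS libraries (20.7 to 102 CPM) all lay below the 4 wild-type ones (157 to 281 CPM). The difference was not called (log2 -1.76 ± 0.67, adjusted p = 0.492), nor was the interaction of genotype and LPS (log2 -1.91 ± 0.93, adjusted p = 1). In the colon, where 3 of the 5 libraries labelled wild-type LPS held 3 or fewer Gpr37 counts, the knockout LPS libraries lay within the wild-type range (log2 -1.42 ± 0.69, adjusted p = 0.301). Without the libraries of few Gpr37 counts the difference was -1.67 (adjusted p = 0.507).

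Tnfrsf1a rose in the wild-type small intestine. Its 6 PBS libraries held 87.4 to 143 CPM, with a median of 110.3, and its LPS libraries 299, 222, 264 and 249 CPM (mice 13, 16, 3 and 8). The groups did not overlap, and the log2 fold change was 1.20 ± 0.23 (2.3-fold, adjusted p = 0.000992, edgeR quasi-likelihood test), kept in 10 of 10 leave-one-out fits. In the knockout small intestine PBS libraries held 108 to 151 CPM and LPS libraries 136, 110.4, 210, 217 and 215 CPM, so that LPS mice 10 and 11 lay among the controls (log2 fold change 0.41 ± 0.25, adjusted p = 0.581). The knockout LPS libraries all lay below the wild-type LPS libraries, without a call (log2 -0.54 ± 0.245, adjusted p = 0.593). In the colon Tnfrsf1a held 102 to 175 CPM with PBS and 112 to 272 CPM with LPS in wild-type mice, and 82.3 to 161 CPM and 154 to 253 CPM in knockout mice, and each pair of groups overlapped. Neither difference was called (log2 fold change 0.61 ± 0.25, adjusted p = 0.117, and 0.78 ± 0.245, adjusted p = 0.15) by the edgeR test, and DESeq2 called the knockout colon difference (adjusted p = 0.0455). Among mice numbered 11 and above the wild-type colon difference was called (log2 fold change 0.95, adjusted p = 0.0251), and it was called with mouse number as a covariate (adjusted p = 0.0401) and without LPS mouse 8 (adjusted p = 0.0477).

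Tnfrsf9 was absent from every PBS library of the colon and present in most LPS libraries. In wild-type mice the LPS libraries held 8.37, 23.7, 92.2, 0 and 19.6 CPM (mice 13, 16, 3, 5 and 8), and the 4 PBS libraries were at 0. Only LPS mouse 5 was level with the controls. Against a floor of 3 counts in each PBS library, the mean was at least 105-fold higher (adjusted p = 0.0106, edgeR quasi-likelihood test), a call kept in 9 of 9 leave-one-out fits and among mice numbered 11 and above (adjusted p = 0.0145) but not in a fit of the compared groups alone (adjusted p = 0.0539). Without LPS mouse 3, whose value was the highest, the mean was at least 47.1-fold higher (adjusted p = 0.0207). Without LPS mice 3, 5 and 8, the libraries of few Gpr37 counts, it was at least 58.4-fold higher (adjusted p = 0.0351). In knockout mice the LPS libraries held 0.322, 18.5, 107 and 2.29 CPM (mice 11, 17, 2 and 21), and the 5 PBS libraries were at 0. The mean there was at least 69.8-fold higher (adjusted p = 0.0253) and at least 15.3-fold higher without LPS mouse 2. The call held in 3 of 9 leave-one-out fits and was lost without LPS mouse 2 (adjusted p = 0.141), without PBS mice 1, 7, 12, 15 or 20 (adjusted p = 0.0629, 0.0561, 0.0598, 0.0682 and 0.0661), and among mice numbered 11 and above (adjusted p = 0.18).

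Small-intestinal Tnfrsf9 had higher means with LPS in both genotypes, without a call. Wild-type LPS libraries held 9.62 to 30.5 CPM and PBS libraries 0 to 3.19 CPM, with no overlap (log2 fold change 4.27 ± 1.52, adjusted p = 0.0886), and it was called by DESeq2 (adjusted p = 0.0445) and in a fit of the compared groups alone (adjusted p = 0.0299). Knockout LPS libraries held 61.2, 3.30, 8.53, 4.68 and 55.9 CPM (mice 10, 11, 17, 21 and 6), and PBS libraries 0, 0, 1.74 and 0 CPM. The groups did not overlap (log2 fold change 5.69 ± 1.87, adjusted p = 0.17), and DESeq2 called the gene (adjusted p = 0.0116). Leaving out 1 library gave log2 fold changes from 5.131 to 10.838 in knockout mice, without a call by the edgeR test. The highest knockout values, and the highest colon values of both genotypes, came from mice numbered 10 and below. With only mice numbered 11 and above, the small-intestinal log2 fold change was 3.175 in knockout mice (adjusted p = 0.608) and 4.517 in wild-type mice (adjusted p = 0.111).

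Fas missed the threshold of the edgeR test in each of the 4 settings at 24 h, by little in 3 of them, and DESeq2 called it in those 3 (adjusted p = 0.0266 in the wild-type small intestine, 0.0154 in the wild-type colon and 0.00485 in the knockout colon). In the wild-type small intestine PBS libraries held 21.0 to 64.9 CPM and LPS libraries 96.2, 88.0, 119 and 106 CPM (mice 13, 16, 3 and 8), with no overlap (log2 fold change 1.27 ± 0.42, adjusted p = 0.0575). It was called there without PBS mouse 19, 22 or 23 (adjusted p = 0.0345, 0.0413 and 0.0393). It was not called there among mice numbered 11 and above (log2 fold change 1.049, adjusted p = 0.107) or without the libraries of few Gpr37 counts (adjusted p = 0.0873). In the wild-type colon PBS libraries held 37.5 to 58.0 CPM and LPS libraries 122, 126, 56.8, 214 and 60.0 CPM (mice 13, 16, 3, 5 and 8), so LPS mouse 3 lay just below PBS mouse 14 (log2 fold change 1.38 ± 0.455, adjusted p = 0.0538). Among mice numbered 11 and above this difference was called (log2 fold change 1.504, adjusted p = 0.0261), as it was without LPS mouse 3 or 8 (adjusted p = 0.0421 and 0.0418). Without the libraries of few Gpr37 counts it was not called (log2 fold change 1.514, adjusted p = 0.127). In the knockout colon PBS libraries held 30.95, 32.97, 54.7, 26.2 and 10.1 CPM and LPS libraries 56.8, 124, 121 and 119 CPM (log2 fold change 1.76 ± 0.44, adjusted p = 0.0513). Those groups did not overlap, and the difference was called without LPS mouse 11 or PBS mouse 15 (adjusted p = 0.0181 and 0.029). Among mice numbered 11 and above it was not called (log2 fold change 1.418, adjusted p = 0.141). In the knockout small intestine the groups overlapped (32.4 to 130.1 CPM with LPS against 23.3 to 73.4 CPM, adjusted p = 0.825).

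**Figure D3:**
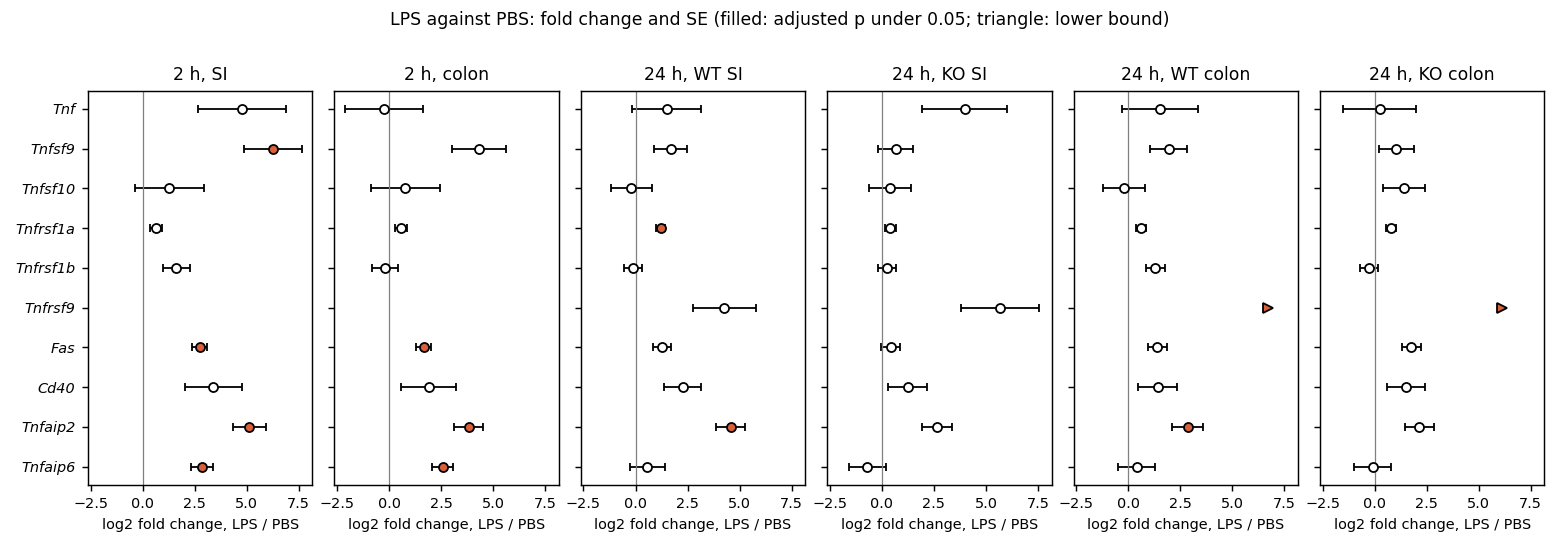
Fold change of each gene with LPS over PBS on the log2 scale, with its SE, in the 6 groups of libraries compared (SI, small intestine). Filled points passed the test; triangles mark Tnfrsf9 in the colon at its lower bound (at least 105-fold and 69.8-fold), and Tnfrsf9 was not tested at 2 h.

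Tnf itself was low at 24 h and was not called in any of the 4 settings. In the wild-type small intestine the LPS libraries held 12.2, 6.67, 0 and 8.21 CPM (mice 13, 16, 3 and 8), while 4 of 6 PBS libraries were at 0 and PBS mouse 14 held 14.0 CPM. The groups overlapped through LPS mouse 3 and PBS mouse 14 (log2 fold change 1.501 ± 1.66, adjusted p = 0.663), and without mouse 14, when no control exceeded 0.212 CPM, the gene was called (adjusted p = 0.0302). Knockout LPS libraries of the small intestine held 0.781 to 25.0 CPM and PBS libraries 0 to 1.09 CPM, overlapping at the low end (log2 fold change 3.97 ± 2.04, adjusted p = 0.47). In the colon the wild-type LPS libraries held 3.59 to 15.0 CPM against 0 to 4.99 CPM with PBS (adjusted p = 0.645), and knockout libraries held 0 to 13.9 CPM against 0 to 13.5 CPM (adjusted p = 0.978).

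The remaining members (Tnfsf9, Tnfaip6, Cd40, Tnfrsf1b and Tnfsf10) overlapped between PBS and LPS in nearly all settings at 24 h. None was called by the edgeR test, while DESeq2 called Tnfsf9 and Tnfrsf1b in the wild-type colon. Tnfsf9, which had risen in the small intestine at 2 h, held 4.44 to 15.1 CPM with LPS and 0.333 to 7.68 CPM with PBS in the wild-type small intestine (log2 fold change 1.69 ± 0.79, adjusted p = 0.207). In its other 3 settings the adjusted p ran from 0.162 in the wild-type colon (0.0469 by DESeq2, with a log2 fold change of 2.02) to 0.66 in the knockout colon and 0.861 in the knockout small intestine. With only mice numbered 11 and above, its log2 fold change was 0.706 in the wild-type small intestine (adjusted p = 0.706) and 1.05 in the wild-type colon (adjusted p = 0.55). Tnfaip6 held 8.47, 45.5, 57.1 and 361 CPM with LPS and 28.7 to 250 CPM with PBS in the wild-type small intestine, a spread that covered the controls (log2 fold change 0.57 ± 0.85, adjusted p = 0.759). Its log2 fold changes in the other three settings were -0.71 ± 0.89 (knockout small intestine), 0.41 ± 0.90 (wild-type colon) and -0.09 ± 0.89 (knockout colon). Each of these 4 values changed sign when 1 library was left out, in the wild-type small intestine to -1.05 without LPS mouse 13, so no direction is given for Tnfaip6 at 24 h. The 2 h and 24 h experiments used separate tables and mice of other genotype labels, so the times are set side by side and were not tested against each other.

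Cd40 held 15.2 to 48.8 CPM with LPS and 1.22 to 17.0 CPM with PBS in the wild-type small intestine (log2 fold change 2.26 ± 0.88, adjusted p = 0.115). In the wild-type colon all 5 LPS libraries (21.8 to 40.1 CPM) exceeded the 4 PBS libraries (9.36 to 17.3 CPM), without a call (log2 fold change 1.42 ± 0.95, adjusted p = 0.366). In knockout mice the groups overlapped in both regions (adjusted p = 0.699 and 0.53). Tnfrsf1b in the wild-type colon held 39.0, 8.75, 40.3, 40.0 and 46.2 CPM with LPS (mice 13, 16, 3, 5 and 8) and 6.58 to 20.7 CPM with PBS. Only LPS mouse 16 lay among the controls (log2 fold change 1.29 ± 0.45, adjusted p = 0.0642). The gene was called without that library (adjusted p = 0.0204) and by DESeq2 (adjusted p = 0.0196). It was not called among mice numbered 11 and above (log2 fold change 0.735, adjusted p = 0.378, edgeR quasi-likelihood test). Nor was it called without the libraries of few Gpr37 counts (log2 fold change 0.768, adjusted p = 0.513). In the other 3 settings the log2 fold change of Tnfrsf1b lay between -0.29 and 0.24, and that of Tnfsf10 lay between -0.22 and 1.42 over all 4 settings, with no call by either tool. Tnfsf10 held 0 to 29.5 CPM with LPS and 8.24 to 16.6 CPM with PBS in the wild-type colon, and 0.804 to 37.5 CPM and 0.728 to 17.4 CPM in the knockout colon, overlapping in both.

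Direct tests of genotype and region at 24 h called no member. By edgeR's quasi-likelihood test the interaction of genotype and LPS called 0 of 10 members and 0% of all genes in either region. At an unadjusted p under 0.05 the counts were 2 members (Tnfrsf1a and Tnfaip2) and 578 genes in the small intestine, and 1 member (Tnfrsf1b) and 2009 genes in the colon. DESeq2 called 0 members in both, with 59 and 350 genes. For Tnfrsf1a in the small intestine the interaction was -0.79 ± 0.34 on the log2 scale (adjusted p = 1), and for Tnfrsf1b in the colon -1.58 ± 0.62 (adjusted p = 0.262). A p over the threshold does not show that the genotypes responded alike.

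Knockout against wild type under LPS called 0 members in either region, where 0.0134% (small intestine) and 0.429% (colon) of all genes were called. By an unadjusted p under 0.05 the counts were 2 of 10 members (Tnfrsf1a and Tnfaip2) and 1137 of 14903 genes, and 1 member (Tnfaip2) and 2448 genes. Without the wild-type libraries of few Gpr37 counts, 0 members were called in either region, with 3 and 0 genes. Under PBS the genotype comparison called 0 members and 0% of genes in both regions, with 0 members and 256 genes, and 1 member (Tnfrsf1b) and 629 genes, at an unadjusted p under 0.05. DESeq2 called 0 members in all 4 of these comparisons and 181, 761, 57 and 76 genes. The interaction of region and LPS called 0 members and 0% of genes in wild-type mice and in knockout mice. The counts at an unadjusted p under 0.05 were 2 members (Tnfrsf1b and Tnfrsf9) and 1126 genes in wild type and 1 member (Fas) and 615 genes in knockout, and DESeq2 called 0 members, with 129 and 70 genes.

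Among the other genes of the pathway at 24 h, 8 of 81 tested list genes rose in the wild-type small intestine, where 7.17% of all genes were called in either direction, and 9 in the wild-type colon, where 7.96% were called. Counted in either direction, these shares of the list lie near those of all genes. They were not set against the share of all genes that rose. In knockout mice 0 of 81 rose in the small intestine, while the colon had 2, and 0.718% of all genes were called in each. Members are included, and no list gene fell. The 0 is edgeR's count, and 9 of those 81 had an unadjusted p under 0.05, as did 1709 of all 14903 genes. Tnfaip3 rose from a mean of 6.83 to 72.3 CPM in the wild-type small intestine (log2 fold change 3.39 ± 0.91, adjusted p = 0.0177) and from 6.08 to 81.8 CPM in the wild-type colon (3.76 ± 1.06, adjusted p = 0.0256). Birc3 rose in both (2.90 ± 0.48, adjusted p = 0.000165, and 2.33 ± 0.53, adjusted p = 0.00686) and in the knockout colon (2.04 ± 0.51, adjusted p = 0.0453). Traf1, an NF-kappaB-induced adaptor of TNFR2, rose in both wild-type regions (2.42 ± 0.63, adjusted p = 0.0146, and 2.61 ± 0.71, adjusted p = 0.0199). Mlkl, the executioner of necroptosis, rose from 11.9 to 55.4 CPM (2.23 ± 0.44, adjusted p = 0.00108) and from 14.4 to 52.4 CPM (1.86 ± 0.48, adjusted p = 0.0143). Traf6, an adaptor of Toll-like and CD40 signalling, rose in the wild-type small intestine (2.36 ± 0.56, adjusted p = 0.00775). In the wild-type colon Birc2 rose (1.62 ± 0.44, adjusted p = 0.0188), as did Bid, which links death receptors to mitochondria (2.01 ± 0.44, adjusted p = 0.00496). Tnfrsf13c, the BAFF receptor of B cells, also rose there and was at 0 in all PBS libraries, so its mean of 5.83 CPM was at least 21.2-fold higher (adjusted p = 0.0487). In the same groups the sum of 4 B and plasma cell markers ran from 0.0351 to 7.60 CPM with PBS and from 0.959 to 2688 CPM (median 10.2) with LPS, with Ms4a1 at 0 with LPS. None of the 4 was called there, and their part in the result was not tested.

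The members with calls in 2 of the 4 LPS comparisons at 24 h were set against other genes by the Pearson correlation of mean log2 CPM over the 8 groups, as a description. Tnfaip2 was most like Cand2 (r = 0.9934) and Ppia (r = 0.9926), and 91 of 10557 candidate genes had r over 0.95. Tnfrsf9 was most like Irf7 (r = 0.9877) and Psme3 (r = 0.9824), with 68 of 10557 over 0.95. The 8 points share mice between regions and carry the same LPS against PBS contrast.

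At least 1 neutrophil marker rose with LPS at 24 h in each of the 4 settings. The sum of 7 markers ran from 0 to 3.61 CPM with PBS and from 7.41 to 823 CPM with LPS in the wild-type small intestine, and from 0.156 to 0.693 CPM and 8.53 to 1730 CPM in the knockout small intestine. In the colon it ran from 0.0965 to 144 CPM and 9.32 to 2315 CPM in wild-type mice, and from 0.243 to 59.9 CPM and 2.09 to 489 CPM in knockout mice. Of the 6 markers tested, S100a8, S100a9, Retnlg and Ngp rose in the wild-type small intestine, Ly6g and Retnlg in the wild-type colon, and S100a8 in both regions of knockout mice. Cxcr2 was at 0 in every PBS group and in the wild-type LPS colon. Macrophage and monocyte markers summed to 321 to 2536 CPM with PBS and 467 to 1885 CPM with LPS in the wild-type small intestine, and to 341 to 1103 CPM and 619 to 3571 CPM in the wild-type colon, overlapping in both. In knockout mice the sums ran from 75.4 to 872 CPM and 449 to 6312 CPM in the small intestine, and from 188 to 3889 CPM and 409.9 to 1103 CPM in the colon. A positive log2 fold change was found for 5 of 10 macrophage markers in the wild-type small intestine, 8 in the wild-type colon, 10 in the knockout small intestine and 2 in the knockout colon. No macrophage marker was at 0 throughout a group; Cd14 rose in the small intestine of both genotypes, and Cx3cr1 fell in that of wild-type mice. Among glial markers Gfap rose in the wild-type small intestine (adjusted p = 0.00928) and Entpd2 fell in the wild-type colon (adjusted p = 0.00564). Neither followed the rest of its list, since Gfap alone of 6 glial markers had a positive log2 fold change in the wild-type small intestine (median -0.69), and 4 of 6 were positive in the wild-type colon (median 0.54). In each region of knockout mice 1 of 6 was positive. Col1a1, a fibroblast marker, fell in both wild-type regions (small intestine adjusted p = 0.0365, colon adjusted p = 0.00666). The sum of 5 fibroblast markers ran from 11900 to 20040 CPM with PBS and from 294.5 to 8813 CPM with LPS in the wild-type colon, without overlap, and overlapped in the other 3 settings. In the wild-type colon the 3 markers of interstitial cells of Cajal also did not overlap (151.5 to 456.6 CPM with PBS and 24.5 to 149.9 CPM with LPS), nor did the 4 mesothelial markers in the wild-type small intestine (599 to 2893 CPM and 215.5 to 385 CPM). No marker of these 2 cell types was called, and the sums of the other lists, the neutrophil markers aside, overlapped in every setting. Whether these cells contribute to the levels of the family was not tested.

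**Figure D4:**
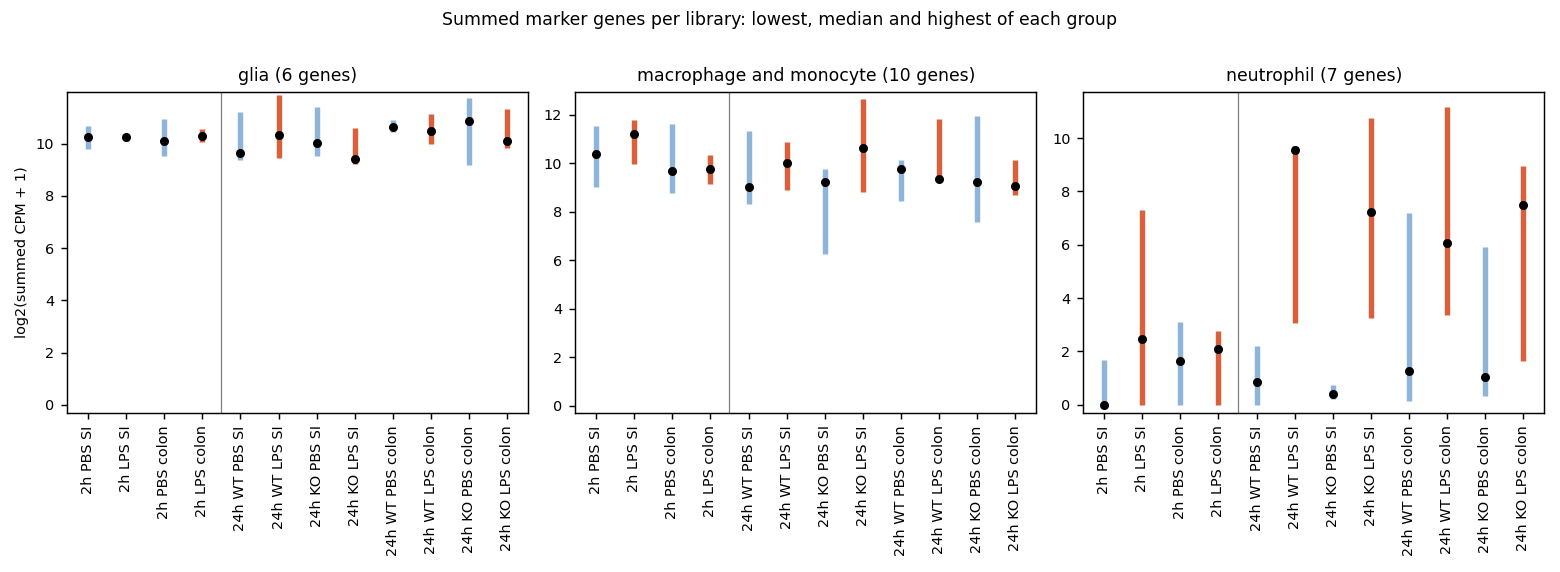
Summed CPM of glial, macrophage and neutrophil marker genes per library as log2(sum + 1), with the lowest to highest library of each group as a bar (PBS blue, LPS red) and the median as a point. The neutrophil sums reach 2315 CPM with LPS at 24 h, while glial sums overlap between PBS and LPS in every pair of groups. The glial sum includes Gfap, which rose from a mean of 215 to 1288 CPM in the wild-type small intestine at 24 h. It alone of the 6 glial markers had a positive log2 fold change there.

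In untreated mice Tnf, Tnfrsf9, Tnfrsf1b, Tnfaip2, Tnfsf10 and Tnfsf9 had higher means in the submucosal than in the myenteric plexus of both regions, Fas mainly in the colon and Cd40 in the small intestine, given here as levels with no test. Tnfrsf9 held 6.47 to 20.8 CPM in the 6 small-intestinal submucosal libraries and was at 0 in 5 of 6 myenteric ones. Tnf held 1.80 to 16.8 CPM (median 11.2) against 0 to 7.62 CPM (median 1.48), and Tnfaip2 10.6 to 65.2 CPM against 0.151 to 6.21 CPM. Of these, Tnfrsf9 and Tnfaip2 did not overlap between the layers, and Tnf did. Tnfrsf1b overlapped there, with 17.2 to 154 CPM in the submucosal and 14.3 to 37.2 CPM in the myenteric libraries. In the colon Tnf held 0 to 27.6 CPM (median 18.1) in the submucosal and 0 to 1.21 CPM (median 0.218) in the myenteric libraries, and Tnfrsf1b 41.4 to 84.8 CPM against 6.04 to 35.5 CPM. Fas held 37.4 to 64.5 CPM in the colon submucosal libraries against 7.85 to 27.5 CPM in the myenteric ones, while its means in the small intestine were 38.3 and 38.2 CPM. Tnfrsf1b and Fas were apart in the colon. The other members overlapped there, among them Tnfaip2, which held 11.4 to 111 CPM against 6.14 to 57.9 CPM, and Tnfrsf9, which held 0 to 12.2 CPM against 0 in all 5 myenteric libraries. Tnfsf10 had means of 29.0 and 13.2 CPM in the submucosal and myenteric small intestine and 33.9 and 14.2 CPM in the colon, with overlap in both. Cd40 held 6.11 to 57.9 CPM against 4.17 to 12.0 CPM in the small intestine, also overlapping. Of the colon submucosal libraries, that of male 3 held no read of Tnf, Tnfrsf9 or Cd40, while the other four held all 3 genes. The ranges of Tnfrsf1a overlapped between the layers, with means of 114 ± 27.9 and 117 ± 36.7 CPM (SD, n = 6) in the myenteric and submucosal small intestine and 144 ± 40.6 and 136 ± 26.3 CPM (SD, n = 5) in the colon. Tnfaip6 went the other way, with 24.6 to 111 CPM (median 65.9) in the small-intestinal myenteric and 7.62 to 50.9 CPM (median 15.5) in the submucosal libraries.

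**Figure D5:**
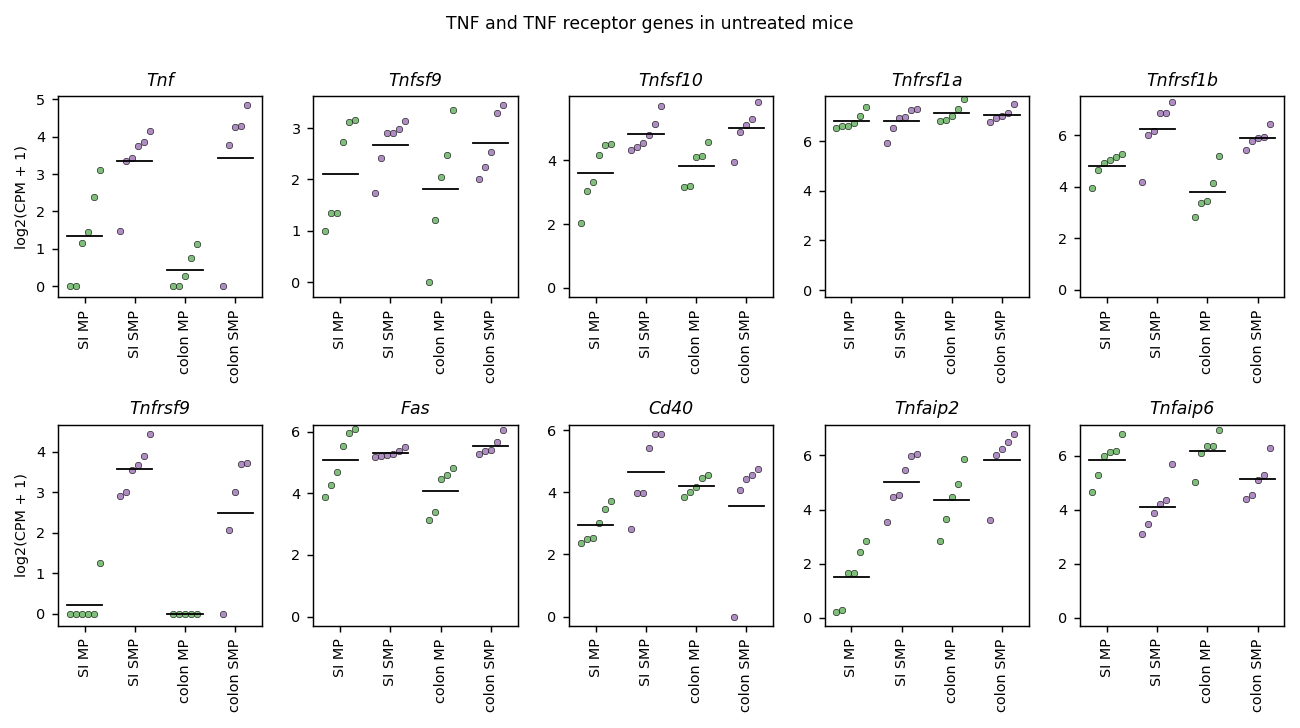
Level of each gene in untreated mice by region and layer (MP, myenteric plexus, green; SMP, submucosal plexus, purple), as log2(CPM + 1) per library with the group mean as a line (5 or 6 libraries a group). Tnfrsf9 is near 0 in both myenteric groups and reaches 20.8 CPM in the small-intestinal submucosal group.

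The marker sums differed with the layer as well, given here with no test. Macrophage and monocyte markers summed to 3755 to 22600 CPM in the small-intestinal submucosal libraries and 251 to 3975 CPM in the myenteric ones, and to 242 to 11600 CPM and 183 to 1007 CPM in the colon. The sum of the 6 glial markers went the other way, with 71.8 to 305 CPM in the submucosal against 1236 to 2169 CPM in the myenteric small intestine, and 190.1 to 1195 CPM against 989.5 to 1940 CPM in the colon, where the ranges overlapped. B and plasma cell markers summed to 14070 to 131900 CPM in the small-intestinal submucosal libraries against 5.00 to 1087 CPM in the myenteric ones, and to 733 to 44960 CPM against 3.07 to 300.4 CPM in the colon. In the small intestine the submucosal sums were also higher without overlap for T and NK lymphocytes (180.7 to 483 CPM against 0 to 13.0 CPM), dendritic cells (35.6 to 137 CPM against 8.01 to 21.0 CPM) and epithelium (939.9 to 3995 CPM against 4.90 to 149.5 CPM), and in the colon for neutrophils (27.0 to 92.1 CPM against 0 to 3.68 CPM). Markers of smooth muscle, neurons and interstitial cells of Cajal were lower without overlap in the submucosal libraries of both regions. Whether any of these differences contributes to the levels of the family was not tested.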

How the data were processed

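RNA was extracted with the RNeasy Plus Micro kit and sequenced as Smart-seq2 libraries, per the labels' protocols. The authors deposited whole-number read counts per gene symbol in 2 tables. The submitters' processing notes name Trim Galore 0.4.4, STAR 2.5.3, DESeq2 and the build GRCm38. The counter, the annotation and the use of strand are not given in the sources used here, so overlapping or antisense genes could share reads.

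Each experiment was fitted whole in edgeR 4.0.16 (R 4.3.3): filterByExpr, TMM scaling, glmQLFit and glmQLFTest over all groups, with Benjamini-Hochberg adjustment over the 13107 (2 h) or 14903 (24 h) genes tested and a threshold of 0.05. SE is the absolute log2 fold change over the root of F. Levels are TMM-scaled CPM. Where no control library exceeded 3 counts, folds are lower bounds. The code was tested on simulated data. Figures were drawn with matplotlib 3.10.9 (Python 3.11.15).

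The 10 members, the gene lists and the division of mice at number 10 were chosen with earlier results of these data known. All members were named. From each pathway list, up to 3 called genes per direction with the largest log2 fold change were named in each LPS comparison, and for members called in at least 2 of the 4 comparisons at 24 h, the 2 genes most alike in pattern.

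Alternatives were DESeq2 1.42.0, RLE size factors, no filter on low counts, sex or mouse number as a covariate, mice numbered 11 and above only, the compared groups alone, a replicate block and leaving out each library. Leaving out both libraries of wild-type LPS mouse 3, or the 4 wild-type libraries of 3 or fewer Gpr37 counts, was chosen after seeing the data. At 24 h, 15 mice gave both regions, which pairs 30 libraries by animal. The correlation of their deviations from group means was -0.044 to 0.237. At 24 h, 25 symbols had the form of dates, and none is a member. Some items are not reported here.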

Additional observations from a re-analysis of the deposited data

Results flagged for a closer look

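In 12 of 114 series of 1 gene in 1 group of 4 to 6 libraries, the highest or lowest library stood apart from the others by Dixon's test at 95%. The test flags about 1 in 20 groups of normally distributed values. Where the other libraries of a group were all at 0, any library with reads was flagged. Such groups were among the 12, so that count is not set against that rate. No explanation was weighed.

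At 2 h, Tnf held 8.49 CPM in colon PBS replicate 2 and 3.95 CPM in small-intestinal PBS replicate 4, with the other libraries of both groups at 0. Tnfsf9 held 6.83 CPM in small-intestinal PBS replicate 3, again with the others at 0. Tnfaip6 was low in colon PBS replicate 1, with 33.1 CPM against 77.5 to 83.9 CPM. Tnfsf10 was at 0 in small-intestinal LPS replicate 2 and at 9.01 to 10.5 CPM in the others.

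At 24 h, 3 of the series that stood apart were of Tnf in wild-type mice. It was at 0 in the small intestine of LPS mouse 3 (others 6.67 to 12.2 CPM) and in the colon of PBS mouse 22 (others 3.09 to 4.99 CPM), and it held 14.0 CPM in the small intestine of PBS mouse 14 (others 0 to 0.212 CPM). Tnfrsf1b held 8.75 CPM in the wild-type colon of LPS mouse 16, against 39.0 to 46.2 CPM. In knockout mice, Tnfrsf9 held 1.74 CPM in the small intestine of PBS mouse 20 (others at 0). Fas held 56.8 CPM in the knockout colon of LPS mouse 11 (others 119 to 124 CPM), and Cd40 held 0.397 CPM in the knockout small intestine of PBS mouse 7 (others 6.35 to 7.81 CPM).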

How the results depend on the processing

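None of the 12 called member values changed sign in 187 alternative fits. Of 46 LPS values that were not called, 13 changed sign in at least 1 alternative (39 of 753 fits), as did 49 of 89 genotype and region values (134 of 1985 fits), and none was called with its sign changed. Beside leave-one-out fits, the LPS values that did so were, at 2 h in the colon, Tnf (-0.27 to 0.54 with sex as a covariate) and, with the replicate block, Tnf (0.55) and Tnfsf10 (0.78 to -1.30). At 24 h sex as a covariate changed Tnfaip6 in the wild-type colon (0.41 to -0.03) and the knockout colon (-0.09 to 0.095) and Tnf in the knockout colon (0.25 to -0.99). The mouse-number covariate changed Tnfsf10 in the wild-type small intestine (-0.20 to 0.365) and colon (-0.22 to 0.96), and mice numbered 11 and above alone changed Tnfrsf1b in the wild-type small intestine (-0.13 to 0.10) and the knockout colon (-0.285 to 0.43). Without both libraries of wild-type LPS mouse 3, Tnfrsf1b and Tnfsf10 in the wild-type small intestine were 0.14 and 0.06, and without the 4 wild-type libraries of 3 or fewer Gpr37 counts 0.15 and 0.07. Of the 12 called member values, 6 stayed called in every leave-one-out fit, 7 in every other alternative and 5 in all, and the cause of the other changes was not tested. Low counts limit Tnf, Tnfsf10 and Tnfrsf9, for which 3 counts correspond to up to 1.46 CPM at 2 h. The mouse-number division and the groups overlap in the wild-type colon, whose PBS group has 0 mice numbered 10 and below.

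At 2 h DESeq2 called 280 genes (small intestine) and 298 genes (colon), and 57 for their interaction. At 24 h it called 1894 genes and 4 members (wild-type small intestine), 535 and 2 (knockout small intestine), 2306 and 5 (wild-type colon) and 496 and 4 (knockout colon). For the interactions it called 59 and 350 genes (genotype, small intestine and colon) and 129 and 70 (region, wild type and knockout), and for knockout against wild type 181 and 761 (LPS) and 57 and 76 (PBS).

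A fit of the compared groups alone called 63 genes and 1 member in the 2 h colon. At 24 h it called 1704 genes and 4 members, 47 genes, 412 genes and 0 members, and 7 genes and 0 members, in the order above. It called 3 genes for the small-intestinal genotype interaction, 1 for the region interaction in wild type, 0 and 0 for knockout against wild type under LPS and 1 under PBS in the small intestine.

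With mice numbered 11 and above, 4 members were called in the wild-type colon and 0 in the knockout colon, and 25 genes for the genotype interaction in the colon, 7 for the region interaction in wild type, and 23 and 334 for knockout against wild type under LPS. The mouse-number covariate gave 4 and 2 members in the wild-type and knockout colon, 1 gene for the colon genotype interaction and 40 for knockout against wild type under LPS in the colon. RLE factors gave 2 members in the knockout colon and 1 gene for knockout against wild type under LPS in the small intestine. Sex as a covariate gave 1 gene for the small-intestinal genotype interaction, and no filter gave 14 genes for knockout against wild type under LPS in the colon. Without wild-type LPS mouse 3, knockout against wild type under LPS gave 1 gene (small intestine) and 14 genes (colon). Without the 4 wild-type libraries of 3 or fewer Gpr37 counts, it gave 0 genes in the colon, and LPS gave 373 genes in the wild-type colon.

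Leaving out 1 library gave 65 to 108 genes and 0 to 3 members in the 2 h colon. At 24 h it gave 641 to 1057 genes (wild-type small intestine), 46 to 352 genes and 0 to 1 members (knockout small intestine), 551 to 1324 genes and 1 to 4 members (wild-type colon), and 28 to 191 genes and 0 to 2 members (knockout colon). The interactions gave 0 to 2 and 0 to 5 genes (genotype, small intestine and colon) and 0 to 1 (region, wild type), and knockout against wild type under LPS 0 to 10 and 7 to 141.

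At 24 h, where pairs are the same animal, the replicate block was fitted for the region interactions only. It called 2 genes in wild-type mice, and no member was called for these interactions with or without it. At 2 h same-numbered libraries share only a number (correlations 0.02 to 0.188, small intestine, and 0.023 to 0.076, colon). There the replicate block gave Fas in the colon a log2 fold change of 1.65 (adjusted p = 0.0599) and Tnfsf9 in the small intestine a 166-fold change.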
